A study of Arabidopsis thaliana with 7 samples.

Results

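Open chromatin in rosettes of the *Arabidopsis thaliana* *msh1* memory line was deposited as gene lists, and 48 of the 2600 genes in any list (1.85%) were listed in every memory plant against the wild type control coded C3 and in none against the other, coded C2. These 48 genes were chosen by their listings. Each was in all 3 lists made against C3, 1 list per memory plant, and in none of the 3 lists made against C2. Their presence in the lists is therefore the rule of selection and is described here without a test. They are genes of the memory contrast with C3 that the contrast with C2 did not return, and what follows gives their identities, functions, surroundings and places in the lists.

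FAIRE (formaldehyde-assisted isolation of regulatory elements) recovers the DNA that stays in the aqueous phase when crosslinked chromatin is extracted with phenol. Reads therefore gather where few histones are bound. *MSH1* is a nuclear gene for a protein of mitochondria and plastids that acts in organelle genome stability. The memory line descends from plants in which *MSH1* was suppressed by a transgene, has lost that transgene, and keeps an altered growth phenotype. In such a line, chromatin called more open in memory than in wild type may be part of that phenotype, and a gene near it marks the place. A second wild type plant shows how far a call depends on the plant it is set against.

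Seedlings of accession Columbia-0, wild type or *msh1* memory, were grown on MS medium at 24 °C with 12 h of light and 12 h of dark, and whole rosettes were taken at 14 days. The wild type was represented by 2 crosslinked plants, numbered 2 and 3, and the memory line by 3, numbered 1 to 3. A decrossed pool of 3 plants of either genotype was not analysed here. Each list set 1 memory plant against 1 wild type plant and held genes with a called peak in the gene or within 2 kb of it. Not every such gene can have been listed. *CRN* and AT4G30900 overlapped a neighbour on both sides and had 0 listed neighbours within 4 kb. How a peak was given to a gene is not stated in the sources used here. The labels do not tie C2 and C3 to wild type replicates 2 and 3, and a rosette mixes cell types, so that a region more open in a few cells and one slightly more open in many cannot be told apart. Sequencing depth, peak caller and threshold are not given in the sources used here, and the lists hold no peak height. The absence of a gene from a list may be a region just under the threshold or one listed under a neighbour's name.

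The lists against C3 held 1305, 1053 and 973 genes for memory plants 1, 2 and 3, which is 4.76%, 3.84% and 3.55% of the 27444 nuclear protein-coding genes. Those against C2 held 1608, 1296 and 1213 genes, or 5.86%, 4.72% and 4.42%. The 48 genes made up 3.68%, 4.56% and 4.93% of the lists of plants 1, 2 and 3 against C3, and since the rule used these lists nothing is read from the shares. Of the 578 genes listed for all 3 plants against C3, 8.30% were absent from every list against C2, 426 were in all 6 lists, and the rest fell between. The same rule with the controls exchanged gave 157 genes, 19.7% of the 798 listed for all 3 plants against C2.

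**Figure D1:**
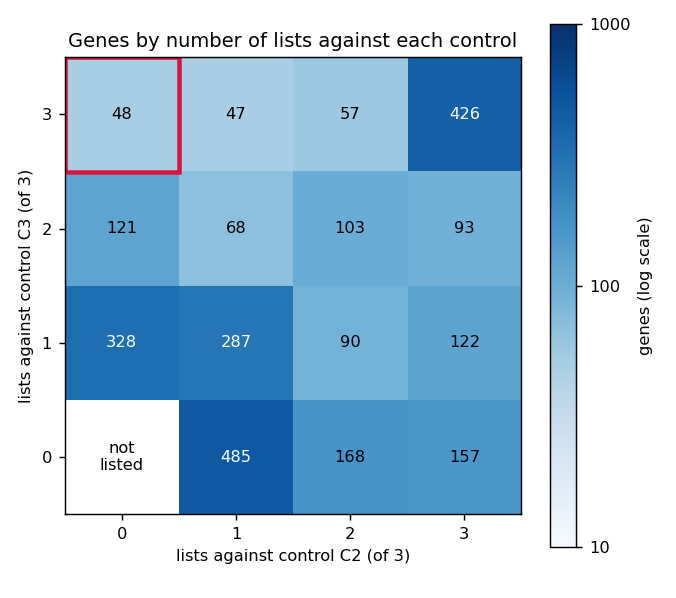
Number of genes by the lists that held them, with the count of lists against C3 (0 to 3) upwards and against C2 (0 to 3) to the right, and with color on a log scale. The outlined cell holds the 48 genes described here, the opposite corner on the right the 157 genes listed only against C2, and the upper right cell the 426 genes in all 6 lists.

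Just outside the rule stood genes that missed it by 1 list. A further 47 genes were in all 3 lists against C3 and in 1 list against C2, and that 1 list was of memory plant 1 for 31 of them, of plant 2 for 6 and of plant 3 for 10. Memory plant 1 had the longest list against C2. A further 121 genes were in 2 lists against C3 and in none against C2, and these lacked plant 1 in 42 cases, plant 2 in 35 and plant 3 in 44. Among all genes never listed against C2, 328 were in 1 list against C3, 121 in 2 and 48 in all 3.

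The set held 5 genes of the ribosome and its assembly, and the upstream sequence of 4 of them is shown because these 4 share a promoter element that the rule did not use. Site II is an element known from plant promoters of ribosomal protein genes and other genes of dividing cells. It was searched here only as the 6 letters TGGGCC, or GGCCCA on the other strand. Variants of these letters were not counted, so every count of site II below is of this form alone. The 200 bases before the annotated start of each gene are given 5′ to 3′ on the strand of the gene, from TAIR10.1, with site II in capitals. *CSTF50*, the gene for a subunit of the cleavage stimulation factor that acts at the 3′ ends of messenger RNAs, is shown beside them.
RPL19B, chr3:5708626-5708825, plus strand: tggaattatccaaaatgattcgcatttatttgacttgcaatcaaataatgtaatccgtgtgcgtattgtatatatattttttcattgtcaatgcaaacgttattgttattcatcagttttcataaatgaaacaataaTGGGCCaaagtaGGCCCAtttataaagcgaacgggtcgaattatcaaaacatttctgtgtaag
RPS27D, chr5:19407450-19407649, minus strand: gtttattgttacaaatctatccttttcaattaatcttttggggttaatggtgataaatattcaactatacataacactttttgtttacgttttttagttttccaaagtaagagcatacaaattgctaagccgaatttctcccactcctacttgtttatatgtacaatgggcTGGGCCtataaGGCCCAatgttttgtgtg
WDR12, chr5:5062145-5062344, minus strand: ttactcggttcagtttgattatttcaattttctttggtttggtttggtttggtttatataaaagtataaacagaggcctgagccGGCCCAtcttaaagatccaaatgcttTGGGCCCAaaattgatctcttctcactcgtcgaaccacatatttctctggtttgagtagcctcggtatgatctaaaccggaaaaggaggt
YAO, chr4:2745636-2745835, minus strand: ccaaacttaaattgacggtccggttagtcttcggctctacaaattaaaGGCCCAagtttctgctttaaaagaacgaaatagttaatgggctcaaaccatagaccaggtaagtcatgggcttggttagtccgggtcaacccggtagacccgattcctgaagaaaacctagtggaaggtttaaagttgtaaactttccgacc
CSTF50, chr5:24522753-24522952, plus strand: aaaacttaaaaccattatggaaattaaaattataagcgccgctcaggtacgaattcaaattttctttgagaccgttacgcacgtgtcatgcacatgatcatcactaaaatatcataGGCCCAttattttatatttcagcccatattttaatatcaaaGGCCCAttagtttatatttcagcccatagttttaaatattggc

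In *RPL19B* the element began 63 and 51 bases before the gene start, once on each strand, and in *RPS27D* 29 and 18 bases before it, again once on each strand. In *WDR12* it began 116, 90 and 88 bases before the start, and the last pair overlaps in the palindrome TGGGCCCA. *YAO* held 1 copy, 152 bases before its start, and *CSTF50* held copies at 84 and 43 bases, with another that began 3 bases before the start and is cut off by the end of the printed stretch. The remaining ribosome gene, *EDA14*, held none in the window searched, which ran from 250 bases before to 50 bases after the gene start. In that window 4 of the 5 genes held site II, beside 40.3% of the 766 protein-coding genes whose annotation falls in the class. These groups are not alike, since the 5 genes were classed by the deposited descriptions as well and only 2 of them, *RPL19B* and *RPS27D*, fall in the class by annotation alone. The class keywords were also revised after values were seen. Site II was 1 of 8 elements searched, and every sequence shown holds it. Another element was also in 4 of the 5 genes, and the values of the other elements in these genes are given at the end of the Results.

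The 5 genes belong to the ribosome itself and to its assembly in the nucleolus. *RPL19B* (AT3G16780) encodes protein L19 of the large ribosomal subunit and *RPS27D* (AT5G47930) protein S27 of the small one. *EDA14* (AT3G60360) and *YAO* (AT4G05410) encode proteins described as associated with the U3 small nucleolar RNA, which acts in the first cuts of the ribosomal RNA precursor, and both genes are known from mutants arrested in the embryo sac or early embryo. *WDR12* (AT5G15550) encodes a WD40-repeat protein that is needed, in yeast and animals, for the maturation of large subunit RNA. The class held 10.4% of the 48 genes, 4.23% of all listed genes, 3.18% of the 157 genes listed only against C2 and 3.05% of the genes in all 6 lists. Of the genes just outside the rule, it held 4.26% of the 47 with 1 list against C2. It held 5.79% of the 121 with 2 lists against C3 and none against C2. By the wording of the RefSeq annotation alone the share of the 48 was 4.17%, beside 2.79% of all protein-coding genes. The class was planned as ribosome or translation genes, and its name was later widened to ribosome biogenesis. Class keywords were revised after values were seen, so this share is a description and no support for a theme.

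A second group of 5 genes was classed by description under cytoskeleton or membrane traffic. *XI-1* (AT1G17580, also *MYA1*) encodes a class XI myosin, the motor that carries organelles along actin filaments, and *ARPC3* (AT1G60430) a subunit of the ARP2/3 complex, which starts branched actin filaments. AT1G64330 encodes a protein related to myosin heavy chains. *SH3P1* (AT1G31440) encodes a protein with an SH3 domain that binds vesicles of the clathrin pathway, and *VPS60.2* (AT5G04850) a SNF7 family protein of the machinery that sorts membrane proteins into multivesicular bodies. Such genes were 10.4% of the 48, 2.42% of all listed genes and 0.637% (1 gene) of those listed only against C2. By annotation wording alone the share was also 10.4%, beside 1.68% of all protein-coding genes. Just outside the rule, the class held 4.26% of the 47 genes with 1 list against C2 and 1.65% of the 121 with 2 lists against C3. This class was added after the names of the 48 genes had been seen, so its share is a description of them and no support for a theme.

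*LIP5* (AT4G26750) stands beside that group, although its description, an extensin-like or hydroxyproline-rich protein, holds none of the class keywords. LIP5 is known in *Arabidopsis* as a positive regulator of the ATPase that takes the multivesicular body machinery apart, and in yeast the protein related to LIP5 binds the one related to VPS60.2. The gene lies at chr4:13475617-13478523 on the minus strand and *VPS60.2* at chr5:1407940-1409935, also on the minus strand. Both were in all 3 lists against C3 and in no list against C2, as the rule requires.

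RNA binding or processing took 4 genes, or 8.33% of the 48, beside 2.46% of all listed genes and 0 of the 157 genes listed only against C2. These were *EDA14* and *YAO* again, *CSTF50* (AT5G60940) and AT3G21300, the gene for an RNA methyltransferase family protein. By annotation wording alone the class kept 1 gene, 2.08%, beside 1.73% of all protein-coding genes. Just outside the rule, the class held 0 of the 47 genes with 1 list against C2 and 2.48% of the 121 with 2 lists against C3. Of 3 genes under transcription factor, *BBX32* (AT3G21150) encodes a B-box protein of light signalling, AT5G05090 a homeodomain-like protein and AT4G17010 a product that the annotation names transcription factor IIIB. Transcription factors were 6.25% of the 48 and 5.35% of all listed genes.

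**Figure D2:**
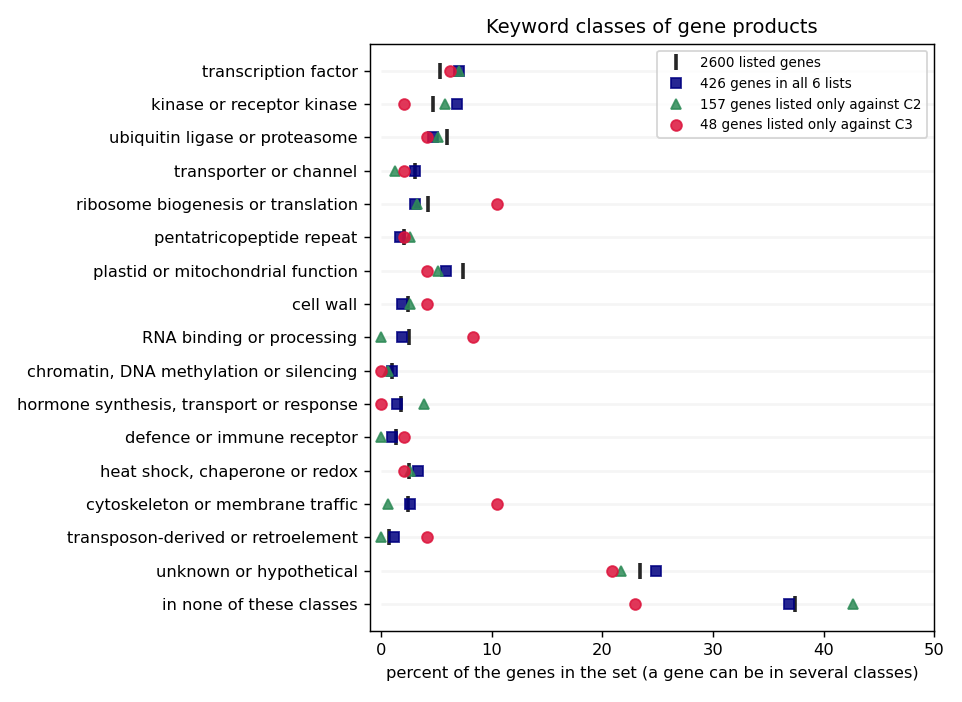
Percent of genes in each keyword class (x axis) for the 48 genes listed only against C3 (circles), the 157 listed only against C2 (triangles), the 426 in all 6 lists (squares) and all 2600 listed genes (bars). The circles stand to the right of the other marks for ribosome biogenesis, RNA processing, cytoskeleton or membrane traffic and transposon-derived genes, on counts of 5, 4, 5 and 2 genes, and by less for cell wall (2 genes) and defence (1 gene). The cytoskeleton and transposon classes were added after the 48 genes had been seen. *EDA14* and *YAO* count under both ribosome biogenesis and RNA processing.

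Signalling and protein turnover were each represented by few genes. *CRN* (AT5G13290) encodes CORYNE, a receptor-like protein with an inactive kinase domain that works in the CLAVATA pathway of stem cell control in the shoot meristem. *RPT5A* (AT3G05530) encodes an ATPase of the proteasome's regulatory particle and AT3G05675 a protein with a BTB/POZ domain. No gene of the 48 fell in the class of hormone synthesis, transport or response, which held 6 of the 157 genes listed only against C2 but 1.81% of all listed genes, nor in that of chromatin, DNA methylation or silencing, which held 26 of the 2600 listed genes (1%). With 48 genes, 0 cannot be told from such shares.

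Organelle and membrane genes were *LPA3* (AT1G73060), which acts in the assembly of photosystem II, *TOM7-1* (AT5G41685), a small subunit of the protein import complex in the outer mitochondrial membrane, and *SIP1-1* (AT3G04090), a small basic aquaporin. AT1G31840 encodes a putative pentatricopeptide repeat protein, a family that acts on organelle RNA. The cell wall class held *SKU5* (AT4G12420), a membrane-anchored glycoprotein related to copper oxidases that acts in directional root growth, and AT1G56100, a member of the invertase and pectin methylesterase inhibitor family. *KCS15* (AT3G52160) encodes an enzyme of very-long-chain fatty acid synthesis, and *NEF1* (AT5G13390) is needed for the outer wall of pollen. AT5G45020 encodes a glutathione S-transferase family protein and AT5G32619 defensin-like protein 82.

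Other products with a name were the GTP-binding protein of *DRG3* (AT4G39520), the membrane-associated progesterone binding protein of *MP3* (AT2G24940, also *MAPR2*), the phloem lectin-like protein of *PP2A6* (AT5G45080), the probable methyltransferase PMT10 of AT1G77260, a methyltransferase of AT3G28460, the WD40-repeat protein of AT3G49400, a putative membrane lipoprotein of AT4G17085 and a protein like DNase I of AT4G30900. AT2G15185 and AT3G44570 were the 2 transposon-derived genes, a zinc knuckle protein and a retrotransposon ORF-1 protein. Descriptions of an unknown or uncharacterized protein were given for 10 genes, 20.8% of the 48, beside 23.4% of all listed genes. Besides AT4G17010 they were AT1G04000, AT1G27640, AT1G31460, AT1G67785, AT1G76185, AT2G11462, AT2G35343, AT2G36470 and AT3G51500. Like AT4G17010, AT1G31460 and AT1G76185 also had a product name in the annotation, vitellogenin-2 protein and NADH-ubiquinone oxidoreductase chain. In all, 23 of the 48 genes had a symbol and 25 had a locus identifier only.

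Pathways discussed for the memory line held no gene of the set. Of 27 circadian clock genes matched in the annotation, 0 were among the 48, 1 (*PHYE*) was listed only against C2 and 4 were listed at all. Of 87 auxin response and transport genes, 0 were among the 48, *ARF6* was listed only against C2, *AFB2*, *ARF8* and *IAA8* were in all 6 lists, and 10 were listed at all. Of 31 genes of RNA-directed DNA methylation and silencing, 0 were among the 48 and 6 were listed at all. With 48 genes out of 27444, these counts of 0 say little about any of the 3 pathways.

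The genes stood close to their neighbours. The space to the 2 adjacent protein-coding genes together, measured between gene ends and counted as 0 on a side with an overlap, had a median of 900.5 bp, with quartiles of 308.25 and 2913.25 bp. It was 2926 bp for the 157 genes listed only against C2, 3623.5 bp where all 6 lists held the gene, 2683 bp for all listed genes and 1791 bp for unlisted genes. A space under 1000 bp was found for 25 of the 48 genes (52.1%), 21.7% of the genes listed only against C2, 33.2% of unlisted genes and 16.9% of those in all 6 lists. By the median, listed genes as a whole had more space around them than unlisted ones, and the 48 genes had less than either.

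**Figure D3:**
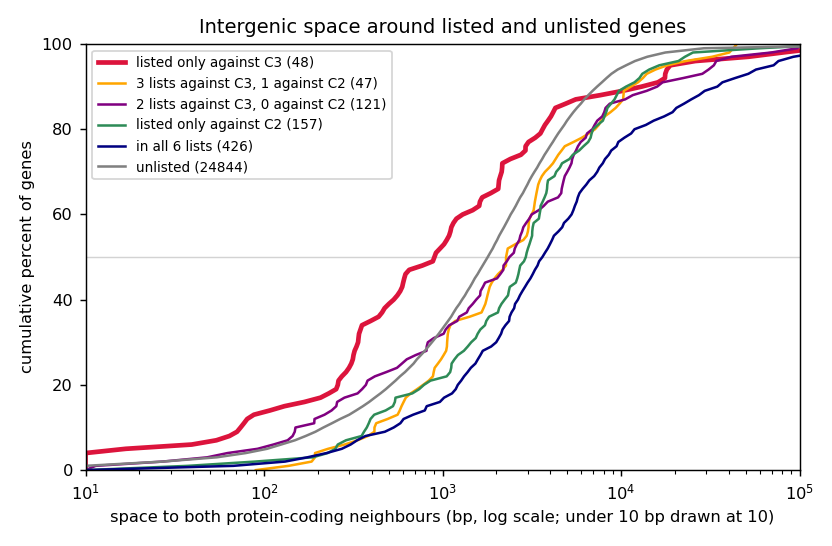
Cumulative percent of genes (y axis) by the space to both protein-coding neighbours in bp (x axis, log scale), 1 line per set of genes. The line of the 48 genes crosses 50 percent at about 900 bp, left of the unlisted genes at 1791 bp and of every other listed set drawn.

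The genes just outside the rule had more space. The median space was 2269 bp for the 47 genes with 1 list against C2 and 2369 bp for the 121 genes with 2 lists against C3. When the rule was loosened, the median rose to 1634 bp with up to 1 list against C2 and to 1736 bp with at least 2 lists against C3. Without memory plant 1, 2 or 3 in the rule it was 2112.5, 1114 and 1472 bp. All of these 5 looser rules but the one without plant 1 stayed under the 1791 bp of unlisted genes. The difference rests on 48 genes and was not tested.

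The upstream side was short as well. The distance from the gene start to the next protein-coding gene had a median of 300.5 bp, beside 1624 bp for the genes listed only against C2, 913 bp for unlisted genes and 2187 bp for the genes in all 6 lists. A protein-coding neighbour overlapped 18 of the 48 genes (37.5%), beside 22.9% of those listed only against C2 and 25.3% of unlisted genes. *CRN*, AT3G21300 and AT4G30900 overlapped a neighbour on both sides. *BBX32* lay 48 bp and *LIP5* 68 bp from the gene upstream. Pairs that start back to back within 1000 bp without overlap were 8 of the 48 (16.7%), near the 18.1% of all protein-coding genes.

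At the other end 6 genes had more than 10000 bp of space. These were AT5G32619 (174896 bp), AT2G11462 (74378 bp), *MP3* (19486 bp), AT2G15185 (17724 bp), *SKU5* (17576 bp) and *PP2A6* (11119 bp). Of these 6, AT2G15185 had the most repeated sequence of the 48 genes, 34.3% of the 31-mers in the gene and its 2 kb flanks, and *MP3* had 33.4%. The median share of repeated 31-mers was 1.72% for the 48 genes, 0.997% for the genes listed only against C2, 0.378% for unlisted genes and 3.08% for those in all 6 lists. Reads of repeated sequence can be placed at any of its copies, and the part of this in the listings was not tested. In all, 9 of the 48 genes (18.8%) had more than 10% repeated 31-mers, near the 19.5% of all listed genes, above the 10.2% of those listed only against C2 and the 9.58% of unlisted genes, and below the 31.7% of the genes in all 6 lists. No gene of the 48 shared a 31-mer with the mitochondrial or plastid genome, beside 2.58% of the genes in all 6 lists and 1.59% of all protein-coding genes, and 48 genes are too few to tell 0 from such shares.

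Length and base composition set the genes apart less. The median gene length was 2163 bp, from 373 bp (AT2G35343) to 10436 bp (*XI-1*), beside 2137 bp for the genes listed only against C2 and 2061.5 bp for unlisted genes. The median GC content of the gene and its 2 kb flanks was 37.4%, beside 36.6% for the genes listed only against C2 and 36.5% for unlisted genes. On the plus strand lay 17 genes (35.4%), beside 51.2% of all listed genes, and 28 of the 47 genes with 1 list against C2 (59.6%).

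By chromosome, 13, 5, 12, 7 and 11 of the 48 genes lay on chromosomes 1 to 5. Against the number of protein-coding genes per chromosome the ratios of observed to expected were 1.04, 0.66, 1.26, 0.96 and 0.99. Chromosome 2 thus held 5 genes where 7.55 were expected, while it held more than expected of the genes in all 6 lists (a ratio of 1.30) and of those listed only against C2 (1.09). With counts this small the ratios are given as values. No 2 of the 48 genes were adjacent in the gene order, and the closest pair, *SH3P1* and AT1G31460 on chromosome 1, stood 2628 bp apart with 1 gene between them.

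Because a peak can lie within 2 kb of several genes, a region near one of the 48 genes could also be listed against C2 under the name of a neighbour. The lists hold no positions, so 1 region under 2 names and 2 separate regions cannot be told apart. Of the 48 genes, 17 (35.4%) had a protein-coding neighbour within 4 kb that was listed against C2 in at least 1 plant, and 10 (20.8%) had one within 2 kb. The matching figure for the genes listed only against C2, with neighbours listed against C3, was 18.5% within 4 kb, and unlisted genes had a neighbour listed against C2 in 15.4% of cases. The 48 genes had more neighbours in reach, 3.19 per gene beside 2.44 for the genes listed only against C2. Per neighbour, 11.8% of the 153 neighbours of the 48 genes were listed against C2, the other control. Nearly as many, 11.1%, were listed against C3, with neighbours that are themselves among the 48 counted. Around the genes listed only against C2, 8.09% of the neighbours were listed against C3, the other control for these. The lists against C3 were the shorter ones for every memory plant. Neighbours listed against C2 were 12.3% around the genes in all 6 lists, 13.3% around those listed only against C2 and 5.85% around unlisted genes.

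In 2 places a neighbour had the opposite pattern. AT5G05090, the homeodomain-like gene, overlapped AT5G05085, a gene for an uncharacterized protein that was in all 3 lists against C2 and in none against C3. The next gene, *UBC22*, a ubiquitin-conjugating enzyme gene 2447 bp from AT5G05090, was in 2 lists against C2 and in none against C3. Every memory plant thus had a listed gene at this locus against either control, under a different name of the overlapping pair. AT1G77280, a kinase-like gene 3889 bp from AT1G77260, was likewise in all 3 lists against C2 and in none against C3, while AT1G77270, 644 bp from AT1G77260, was in 1 list, that of plant 2 against C3.

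In 3 further places a neighbour was in all 6 lists. *SGR2*, known from shoot gravitropism, stood 2451 bp from AT1G31460, AT3G21320, an EARLY FLOWERING-like gene, 2440 bp from AT3G21300, and *DGAT2*, a diacylglycerol acyltransferase gene, 1678 bp from AT3G51500. *CDS3*, a phospholipid synthesis gene 3540 bp from *LIP5*, was in all 3 lists against C3 and in 1 against C2. AT5G47920, 1932 bp from *RPS27D*, had the same pattern. *NOP56*, the gene for a core protein of nucleolar ribonucleoproteins, stood 157 bp from AT1G56100 and was in 1 list against each control, in both cases that of memory plant 3.

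Counting each listed neighbour within 4 kb that is not itself among the 48 once, there were 23, of which 8 were listed against C2 only, 5 against C3 only and 10 against both. No listed neighbour within 4 kb was found for 29 of the 48 genes (60.4%), beside 66.2% of the genes listed only against C2, 70.9% of those in all 6 lists and 81.1% of unlisted genes, and 19 of the 48 had at least 1. Within 2 kb, 45 of the 48 genes had a protein-coding neighbour and 85 of these 98 neighbours (86.7%) were in no list, beside 83.5% for the genes listed only against C2, 83.9% for those in all 6 lists and 92.7% for unlisted genes.

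The order of rows within the lists carried a further property. In every list each chromosome was written as 3 runs sorted by position, the first with genes of the plus strand only, the second with genes of the minus strand only and the third with both. What the runs stand for is not given in the sources used here. In each of the 3 lists against C3, 22 of the 48 genes (45.8%) were in the third run, beside 40%, 44.5% and 42.8% of the whole lists of plants 1, 2 and 3. For the genes in all 6 lists the share was 26.1% against C3 and 21.3% against C2. For the genes listed only against C2 it was 34.6% in the lists against C2. The third run of those whole lists held 487 of 1608, 455 of 1296 and 423 of 1213 genes for plants 1, 2 and 3. Shares in lists against different controls thus have different bases.

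**Figure D4:**
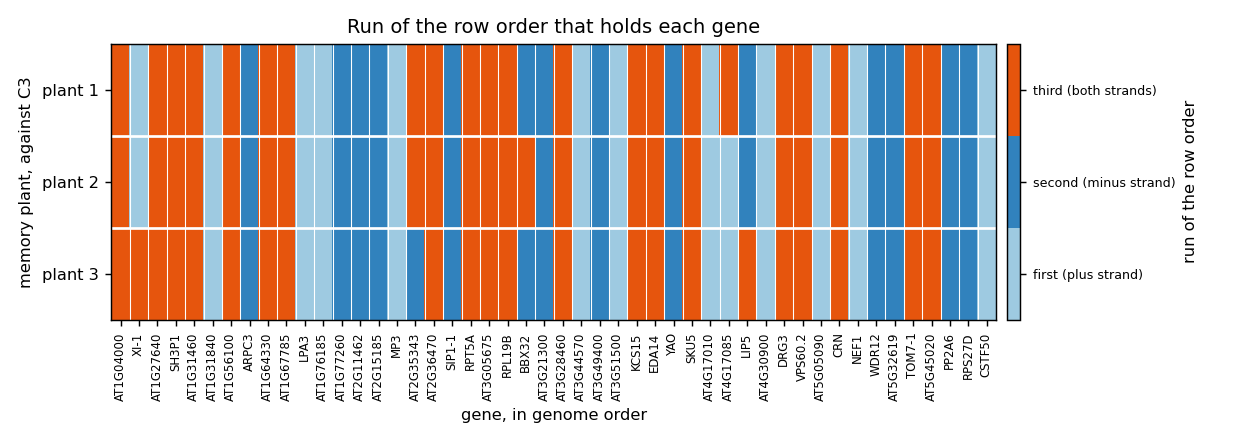
The run of the row order (color) that held each of the 48 genes (x axis, in genome order) in the list of each memory plant against C3 (y axis). Columns of 1 color are genes in the same run in all 3 plants, which are 43 of the 48.

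Position in the runs was nearly the same from plant to plant. Of the 48 genes, 20 were in the third run in all 3 lists, 23 in none, and 5 changed. The same run in all 3 lists held 43 of the 48 (89.6%), beside 89.4% of the 578 genes in all 3 lists against C3 and 92.0% of the genes in all 6 lists. The 5 that changed were *XI-1* and *LIP5*, in the third run for plant 3 only, *BBX32*, there for plant 2 only, AT4G17085, there for plant 1 only, and AT2G35343, there for plants 1 and 2. The 20 genes always in the third run included *SH3P1*, *RPT5A*, *RPL19B*, *KCS15*, *EDA14*, *SKU5*, *DRG3*, *VPS60.2*, *CRN* and *TOM7-1*. Of these 20, 16 were on the minus strand and 4 on the plus strand, while the third run of the whole list of plant 1 against C3 held 50% plus strand genes. Their median space was 774 bp and their median upstream distance 195 bp, beside 1599 and 644 bp for the 23 genes never in the third run, among them *ARPC3*, *LPA3*, *YAO*, *WDR12*, *RPS27D* and *CSTF50*.

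Promoter letters were compared over the same window of 300 bases for all 48 genes and all protein-coding genes, on both strands. Site II was in 11 of the 48 promoters (22.9%), beside 15.5% of all promoters, 18.5% of those of genes listed only against C2 and 17.1% of those in all 6 lists. Besides the genes shown above, *CRN*, *DRG3*, AT1G31840, AT3G49400, AT4G17010 and AT5G05090 held it. Those of AT5G05090 began 132 and 98 bases before its start. Within the first 150 bases upstream, 8 promoters held site II, 16.7% beside 11.2% of all promoters.

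Other elements stood above or below their share of all promoters. The W-box core TTGACC, known from the binding of WRKY factors, was in 11 promoters (22.9%), beside 14.2% of all promoters, and in the first 150 bases in 4 (8.33% beside 7.99%). The repeat GAGAGAGA was in 7 (14.6% beside 8.38%) and in none within 150 bases. The ABA response core ACGTGG was in 3 (6.25% beside 9.85% of all and 15.9% of those of genes listed only against C2). The G-box CACGTG was in 4 (8.33% beside 7.68%), the evening element AAAATATC of clock-regulated genes in 4 (8.33% beside 6.89%), the telo-box AAACCCTA in 4 (8.33% beside 6.22%) and the letters TATAAA in 24 (50% beside 52.1%). This last element was also in 4 of the 5 ribosome genes (80%), beside 52.5% of the protein-coding genes whose annotation falls in that class. In the same comparison the W-box core was in 2 of the 5 (40% beside 12.1%) and the telo-box in 1 (20% beside 24.5%). The remaining elements of this paragraph were in 0 of the 5. The ABA response core and the G-box can share 5 letters, so their counts are not separate. A match is a description of letters and not of a bound site.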

How the data were processed

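FAIRE-seq libraries of 3 *msh1* memory and 2 wild type rosettes were used. Per the submitters' processing notes, reads were trimmed with Trim Galore 0.4.1 and cutadapt 1.9.1 and aligned with Bowtie2, and the build was TAIR10. The authors deposited 6 gene lists, each with a locus identifier, a symbol and a description. The lists name genes within 2 kb of a peak called for 1 memory plant against 1 wild type library, though not every such gene. A listing is present or absent, with no count or score, so replicate error could not be computed and no test was made. All columns used came from these lists, and 0 identifiers had no match among the RefSeq annotation of TAIR10.1.

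Gene positions, promoters and 31-mers were taken from RefSeq TAIR10.1 with Python 3.11.15 and numpy 2.4.6, and the selection and motif search were tested on simulated data. The lists hold no coordinates, so genes were joined by identifier only. Descriptions were sorted into 16 keyword classes. The 48 genes and the gene lists were chosen with earlier results of these data known, the keywords were revised after values were seen, and the cytoskeleton and transposon classes were added then. Every gene with a symbol was named, with up to 2 others per function group and neighbours that a result turns on, and the remaining genes were named to account for all 48, chosen after their values were seen. Alternatives were looser rules, 1 plant left out, other windows, and chromosome length.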

Additional observations from a re-analysis of the deposited data

How the results depend on the processing

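The number of genes depended on the rule. Leaving 1 memory plant out of the rule gave from 90 to 122 genes, 122 without plant 1, 90 without plant 2 and 104 without plant 3. At least 2 lists against C3 gave 169 genes, at most 1 list against C2 gave 95, and the controls exchanged gave 157, while neighbouring genes counted once left 48. All of these but the exchanged set held the same 48 genes by construction. Leaving out genes with over 10% repeated 31-mers, chosen after seeing the data, left 39. Over 18 results, 27 of 43 alternatives stayed within the set margin (1.5 times for counts and values) and 16 moved. The share of genes in the third run went from 45.8% to 58.0% with at least 2 lists against C3, and the share with a neighbour listed against C2 from 35.4% to 20.8% when the distance was 2 kb. With neighbours from all nuclear genes the median space was 744 bp. Each memory plant was set against both controls, so the listings are paired by memory plant. No value per library was used here and no paired analysis was made. The 3 lists against C3 share 1 wild type library, so they are not independent of each other. Peak thresholds and overlap minimums were not run, since the lists hold genes without peak values. Depth is unknown, so a gene absent against C2 may be one just short of detection there, or one whose region was listed under a neighbour's name.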
